A study of Rattus norvegicus with 5 samples.

Results

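The high-metastatic rat hepatocellular carcinoma lines N1 and L2 were compared with the low-metastatic lines C5F and C6, which together are 4 of the 5 samples of the study. The fifth sample was liver. All 4 lines were labelled as liver tumour lines established from male F344 rats that had been given the carcinogens N-nitrosomorpholine and diethylnitrosamine, with an age of 31 weeks, and the liver came from a male SD rat of 50 weeks that was not treated. The labels name the metastatic class of each line and do not say whether the lines share an animal. Total RNA of each line was read on 1 single-colour CodeLink whole-genome array, so the 2 lines of a class stood as its replicates, and every error given here is the spread between lines. The comparison asks which transcripts differ between lines of different metastatic ability.

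Metastasis requires tumour cells to loosen from their neighbours, move, cross the matrix around them and grow at another site. Epithelial cells are held together by cadherins and claudins, and movement depends on the assembly and cutting of actin filaments. Growth draws on amino acid supply, ribosomes and lysosomal recycling, and carcinoma lines of the liver usually keep few functions of the hepatocyte.

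Probes entered the comparison when the scanner software called them above background on at least 3 of the 4 lines, which 10741 of 33849 discovery probes met. Of these, 6661 had a usable spot on all 4 lines, and the others lacked 1 line. The platform annotation gave 6767 of the 10741 probes exactly 1 gene, and they stood for 5943 genes, of which 3759 had a usable spot on all 4 lines. Signals are log2 values of quantile-normalised intensity, with a floor of 1.34 that stands for background. A gene was called set apart when both lines of a class lay above both lines of the other, and its gap is the distance between the lower line of the brighter class and the higher line of the dimmer class. The arrays read RNA of whole cultures, so fewer cells that express a gene and less RNA per cell cannot be told apart.

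No probe passed a false discovery rate of 0.05 between the classes in limma (0 of 13741 tested, 0%, lowest adjusted p = 0.518), and 1003 probes (7.30%) had an unadjusted p under 0.05. With 2 lines against 2, an exact permutation test cannot go below 0.333, so the sections that follow describe gaps and counts and not called genes. Both high-metastatic lines lay above both low-metastatic lines for 1293 of 6661 probes (19.4%), and below both for 1258 (18.9%). A gap of at least 2-fold was reached by 50 probes (0.751%) with N1 and L2 above and by 18 (0.270%) with N1 and L2 below. A gap of at least 4-fold was reached by 9 probes (0.135%) above and 2 (0.0300%) below. Among the 3759 genes, 723 (19.2%) were set apart with N1 and L2 above and 713 (19.0%) with N1 and L2 below, and 22 (0.585%) and 9 (0.239%) had gaps of at least 2-fold. The balance of directions moved with the scaling. Of the probes set apart, 50.7% lay above as reported, 32.5% when arrays were scaled to equal medians of the spots above background, 39.3% after scaling to the 75th percentile and 62.8% on the authors' normalized intensity. The median over all measured genes was −0.01 as reported, −0.15 with the first of these scalings and −0.11 with the second, and small shifts of a list have to be read against it.

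Lines of a class also differed from each other. The median absolute log2 difference was 0.38 between N1 and L2, 0.29 between C5F and C6, and 0.28 between the class means. The first 2 values compare single lines and the third compares means of 2 lines, which vary less. The values therefore do not measure the class difference against the line difference on equal terms. Class means lay at least 2-fold apart for 494 probes, of which 289 were higher in the high-metastatic lines. In 346 of the 494 (70.0%) the lines of the 2 classes did not overlap. Over all 6661 probes, 19.4% lay apart above and 18.9% below. Choosing probes by a wide difference of means raises the share without overlap by itself.

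Tceal9, a small nuclear protein related to transcription elongation factor A, had the widest gap among genes with 4 usable spots outside antioxidant defence. Its signal was 8.05 in N1 and 8.83 in L2, against 4.06 in C5F and 4.11 in C6, a gap of 15.3-fold and a class difference of 4.35 ± 0.34 (SE, limma, unadjusted p = 0.000533, adjusted p = 0.608). Both high-metastatic lines were bright and both low-metastatic lines were close to each other just above background, with liver between them at 6.44. Ptprn, a phosphatase-like membrane protein of dense-core secretory granules, reached 8.80 in N1 and 8.82 in L2, against 5.21 in C5F and 5.82 in C6. N1 and L2 were nearly equal for it, and the gap was 7.86-fold. Zfp775, a zinc finger protein, read 6.94 in N1 and 6.85 in L2, against 3.19 in C5F and 3.89 in C6 (near background). At the other end, Bcat1, the cytosolic aminotransferase of branched-chain amino acids, had the widest gap among genes that were lower in the high-metastatic lines. Its signals were 6.02 in N1 and 1.91 in L2 (near background), against 8.22 in C5F and 7.87 in C6, a gap of 3.62-fold between N1 and C6, with L2 further down. Without L2 the Bcat1 difference was −2.03. Tars1, the threonyl-tRNA synthetase of the cytosol, was bright in every line at 8.69 in N1 and 7.87 in L2, against 9.98 in C5F and 9.59 in C6, a class difference of −1.50 ± 0.39 (SE).

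Promoters are shown for the genes with the widest gap in each direction outside antioxidant defence, and for Tars1, which carries an E-box. They run from 250 bases before to 50 after the annotated start, as RefSeq gives them for the assembly GRCr8. Capitals mark, on either strand, the letters of a GC box (GGGCGG), of a MYC E-box (CACGTG) or of a CCAAT box, named for its letters. The Tceal9 window is chrX:104037024-104037323 on the plus strand and holds 1 GC box and 2 CCAAT boxes. The Bcat1 window is chr4:179777239-179777538 on the minus strand and holds 1 CCAAT box. The Tars1 window is chr2:62114753-62115052 on the minus strand and holds 1 GC box, 2 CCAAT boxes and 1 E-box.
Tceal9: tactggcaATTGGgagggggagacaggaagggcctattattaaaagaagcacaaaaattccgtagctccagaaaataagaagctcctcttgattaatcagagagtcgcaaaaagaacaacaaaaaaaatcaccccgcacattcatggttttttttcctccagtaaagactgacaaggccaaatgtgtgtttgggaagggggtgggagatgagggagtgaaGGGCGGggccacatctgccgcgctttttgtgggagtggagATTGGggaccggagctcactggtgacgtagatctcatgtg
Bcat1: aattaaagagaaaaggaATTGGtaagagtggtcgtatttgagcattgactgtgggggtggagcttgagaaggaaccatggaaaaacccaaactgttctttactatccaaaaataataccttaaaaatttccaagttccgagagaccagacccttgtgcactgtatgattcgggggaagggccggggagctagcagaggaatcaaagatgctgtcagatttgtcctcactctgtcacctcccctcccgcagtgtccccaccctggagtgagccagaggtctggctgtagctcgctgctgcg
Tars1: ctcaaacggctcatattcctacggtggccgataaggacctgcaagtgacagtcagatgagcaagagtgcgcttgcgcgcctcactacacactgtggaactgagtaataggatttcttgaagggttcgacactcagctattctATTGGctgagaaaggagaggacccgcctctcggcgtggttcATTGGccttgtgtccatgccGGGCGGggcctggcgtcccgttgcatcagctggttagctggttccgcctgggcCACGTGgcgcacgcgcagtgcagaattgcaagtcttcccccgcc

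The E-box, the sequence that MYC and related factors bind, was more frequent in promoters of genes that were lower in the high-metastatic lines. It stood in 80 of 615 such promoters (13.0%), against 45 of 610 promoters of genes set apart with N1 and L2 above (7.38%). Over all 3191 measured genes with a promoter the share was 9.37%, and over all 27457 RefSeq promoters 6.65%. The order was the same on the authors' normalized intensity (14.7% lower, 6.34% higher) and with scaling to the median of probes above background (13.1% and 5.29%). The GC box stood in 59.2% of promoters of the lower genes, 68.5% of the higher genes, 62.9% of measured genes and 34.9% of all promoters. CCAAT letters were found in 41.0% of promoters of the lower genes, 39.7% of the higher genes, 38.4% of measured genes and 37.7% of all promoters. For the AP-1 site (TGANTCA) these shares were 4.23%, 6.07%, 4.64% and 7.33%, and for the TATA box (TATAAA) they were 7.15%, 8.20%, 7.40% and 14.3%, in the same order. A match is a run of letters in the window and was not tested as a site.

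**Figure D1:**
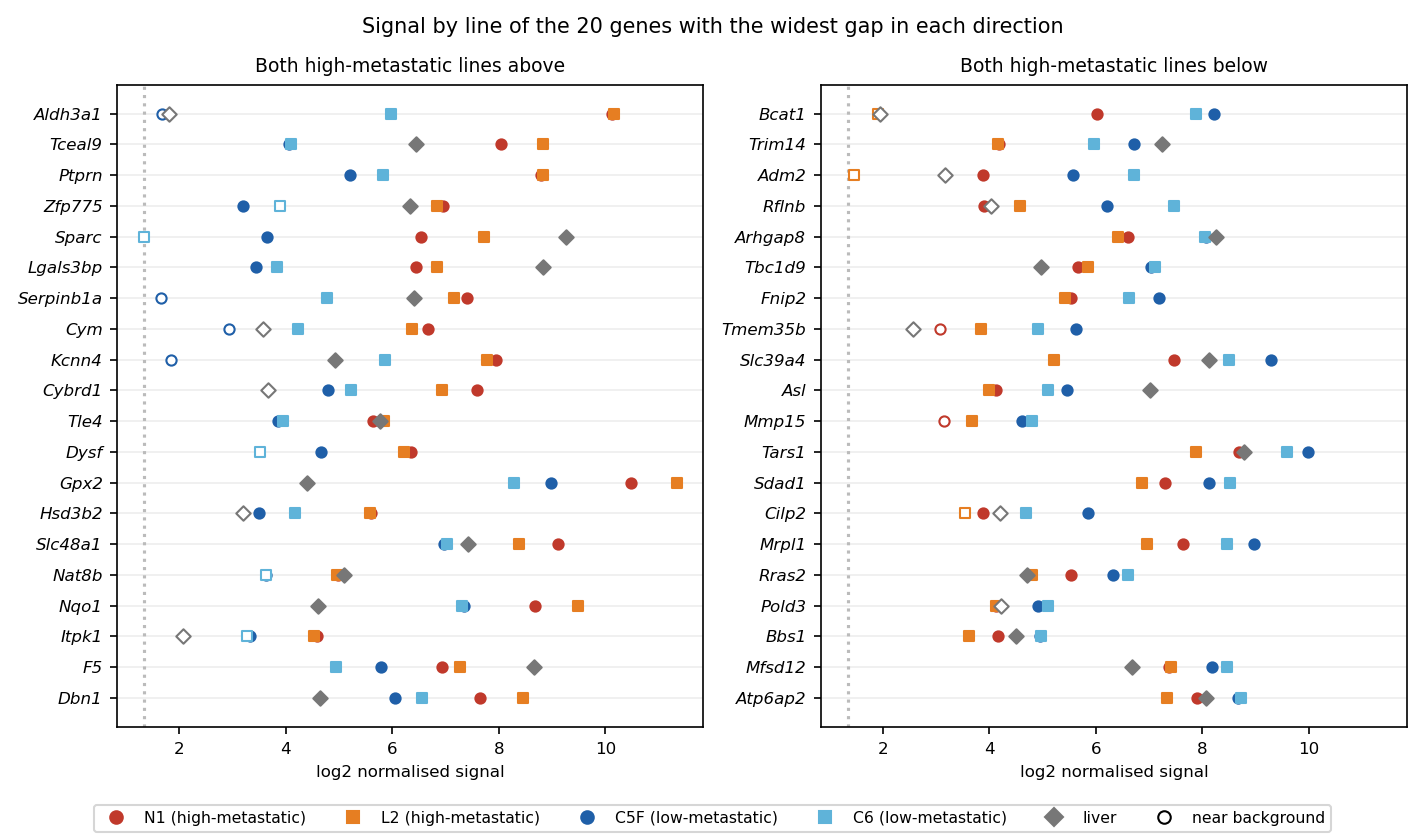
Log2 normalised signal (x axis) of the 20 genes with the widest gap above (left) and below (right) in the high-metastatic lines, with 1 point per array, N1 and L2 in red and orange, C5F and C6 in blue, and liver in grey. Open points were near background, the dotted line is the floor of 1.34, and for every gene the red and orange points lie on one side of the blue ones.

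The genes with wide gaps in the upper direction also included Sparc, Lgals3bp and Serpinb1a. Sparc, a matricellular glycoprotein of remodelling tissue, read 6.55 in N1 and 7.72 in L2, against 3.64 in C5F and 1.34 in C6 (near background), and liver was brighter than any line at 9.26. Lgals3bp, a secreted glycoprotein that binds galectins, read 6.44 in N1 and 6.84 in L2, against 3.45 in C5F and 3.84 in C6, a gap of 6.06-fold, but a second probe of the gene gave a class difference of −0.20. Serpinb1a, an intracellular inhibitor of neutrophil serine proteases, read 7.39 in N1 and 7.16 in L2, against 1.67 in C5F (near background) and 4.77 in C6. C5F was the dimmest line for it, and without C5F the difference was 2.51 instead of 4.06. Kcnn4, a calcium-activated potassium channel, had the same order, with 7.94 in N1 and 7.77 in L2, against 1.85 in C5F (near background) and 5.86 in C6. Its second probe differed by 1.80, in the same direction. Cym, the aspartic protease chymosin, read 6.67 in N1 and 6.37 in L2, against 2.93 in C5F (near background) and 4.23 in C6, and F5, coagulation factor V, read 6.93 in N1 and 7.27 in L2, against 5.79 in C5F and 4.94 in C6. The second F5 probe differed by 1.58.

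The other genes with wide gaps above had varied roles. Cybrd1, a ferric reductase of the plasma membrane, read 7.59 in N1 and 6.93 in L2, against 4.79 in C5F and 5.23 in C6. Slc48a1, a haem transporter of endosomes and lysosomes, read 9.10 in N1 and 8.39 in L2, against 6.97 in C5F and 7.03 in C6, and its second probe differed by 2.18 against 1.74 for the first. Both probes therefore placed Slc48a1 higher in the high-metastatic lines. Dysf, a protein of membrane repair, read 6.36 in N1 and 6.22 in L2, against 4.67 in C5F and 3.51 in C6 (near background), and Dbn1, which bundles actin filaments, read 7.65 in N1 and 8.45 in L2, against 6.04 in C5F and 6.56 in C6. Tle4, a transcriptional co-repressor, read 5.63 in N1 and 5.85 in L2, against 3.87 in C5F and 3.96 in C6, but its second probe gave −0.20. Hsd3b2, a steroid dehydrogenase, Nat8b, an N-acetyltransferase-like protein, and Itpk1, an inositol phosphate kinase, were dim. The gaps of Hsd3b2 and Itpk1 were 2.65-fold and 2.30-fold, and for Nat8b and Itpk1 C6 was near background. Aldh3a1, Gpx2 and Nqo1, enzymes of antioxidant defence, also stood among the 20 widest gaps, with 17.8-fold, 2.83-fold and 2.51-fold. Over the whole antioxidant list 23 of 35 genes with 4 usable spots were set apart above (65.7%, against 19.2% of all genes) and 1 below (2.86%, against 19.0%).

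Of the 20 genes with the widest gap below in the high-metastatic lines, 9 reached 2-fold. Trim14, an adaptor of antiviral signalling, read 4.19 in N1 and 4.17 in L2, against 6.71 in C5F and 5.97 in C6, and N1 and L2 were nearly equal. Adm2, a peptide hormone of the calcitonin family, read 3.88 in N1 and 1.47 in L2 (near background), against 5.56 in C5F and 6.72 in C6, and Rflnb, a filamin-binding protein, read 3.90 in N1 and 4.58 in L2, against 6.21 in C5F and 7.47 in C6. In all 3 genes both high-metastatic lines were in the dim range and both low-metastatic lines were brighter. Arhgap8 read 6.60 in N1 and 6.42 in L2, against 8.06 in C5F and 8.05 in C6, so that the lines of each class were close together. Tbc1d9, a Rab GTPase-activating protein, read 5.67 in N1 and 5.85 in L2, against 7.04 in C5F and 7.10 in C6, and Fnip2, a partner of folliculin in nutrient sensing, read 5.54 in N1 and 5.43 in L2, against 7.18 in C5F and 6.63 in C6. Slc39a4, the zinc importer of the intestinal epithelium, read 7.47 in N1 and 5.21 in L2, against 9.28 in C5F and 8.49 in C6. L2 was far below N1 for Slc39a4, and a second probe differed by −1.77. Tmem35b, a membrane protein, read 3.08 in N1 (near background) and 3.85 in L2, against 5.63 in C5F and 4.91 in C6.

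The remaining genes of that direction had gaps under 2-fold. Asl, the argininosuccinate lyase of the urea cycle, read 4.12 in N1 and 4.0 in L2, against 5.46 in C5F and 5.11 in C6, and liver was at 7.01. Mmp15, a membrane-anchored matrix metalloproteinase, read 3.15 in N1 (near background) and 3.68 in L2, against 4.62 in C5F and 4.80 in C6, with a second probe at −0.92. Rras2, a small GTPase of the Ras family, read 5.54 in N1 and 4.79 in L2, against 6.33 in C5F and 6.59 in C6, and its second probe differed by −1.45. Both probes of Mmp15 and of Rras2 thus gave lower means in the high-metastatic lines. Sdad1 and Mrpl1, proteins of ribosome biogenesis and of the mitochondrial ribosome, differed by −1.24 ± 0.28 and −1.41 ± 0.37 (SE). Pold3, an accessory subunit of DNA polymerase delta, differed by −0.89, Bbs1, of the ciliary BBSome, by −1.07, and Cilp2, a cartilage matrix protein, by −1.56. L2 was near background for Cilp2. Mfsd12, a cysteine transporter of lysosomes, and Atp6ap2, an accessory protein of the vacuolar proton pump, differed by −0.93 and −1.08.

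**Figure D2:**
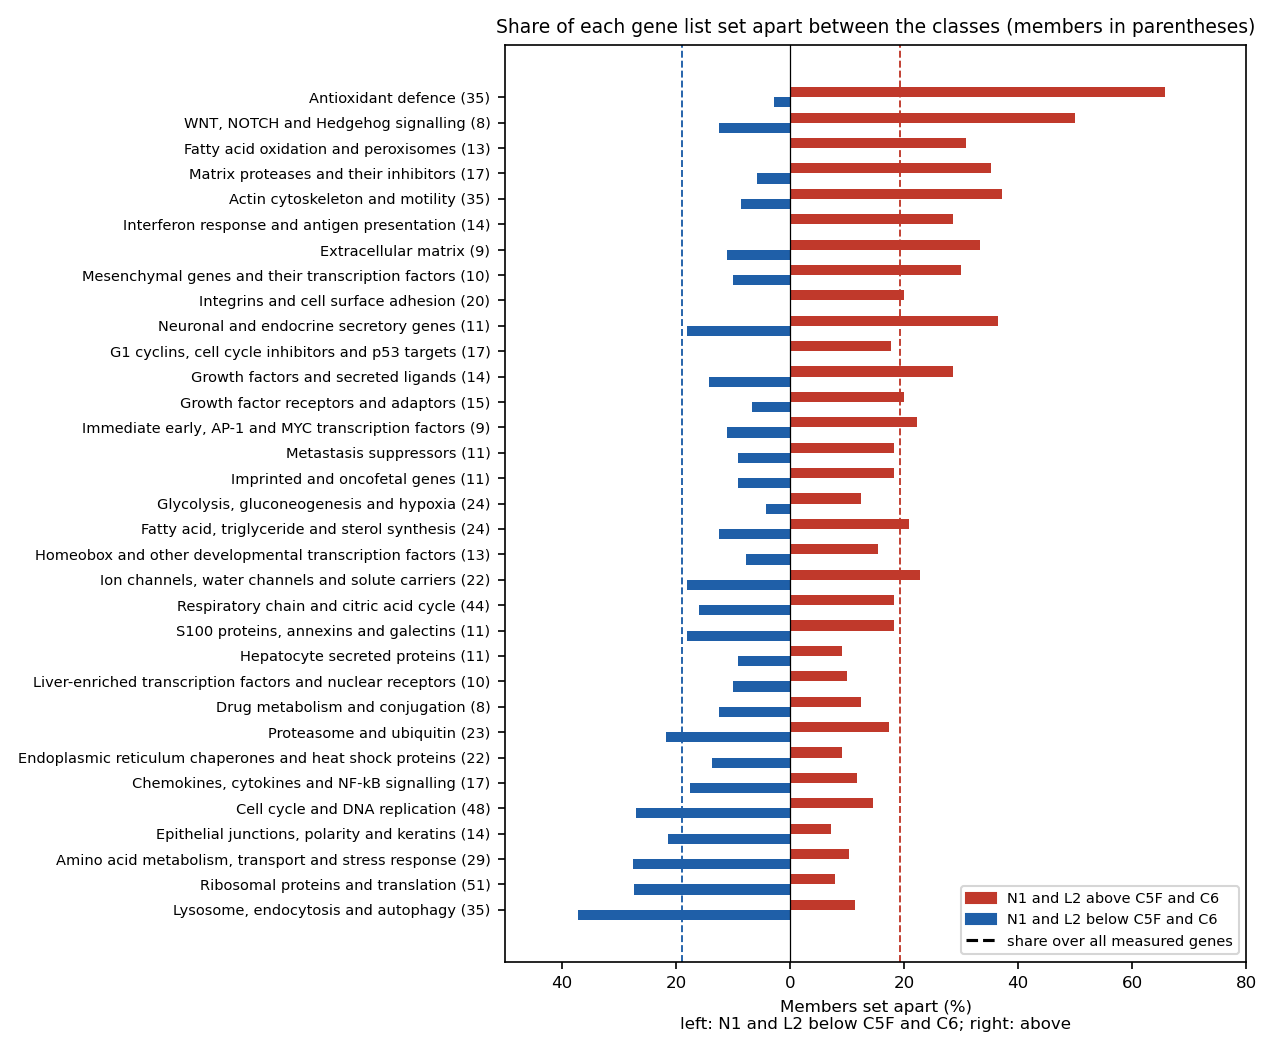
Share of the members of each gene list (percent of members with a usable spot on all 4 lines, whose number is in parentheses) that were set apart with N1 and L2 above C5F and C6 (red, right) or below them (blue, left), for lists with at least 8 such members. Dashed lines give the shares over all measured genes, 19.2% above and 19.0% below; the actin list extends furthest beyond the line on the right after the antioxidant and WNT lists, and the lysosome list furthest on the left.

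Genes of the actin cytoskeleton and cell motility leaned to the high-metastatic side. Of 35 members with 4 usable spots, 13 were set apart above (37.1%, against 19.2% of all genes) and 3 below (8.57%, against 19.0%), and the median difference over all 50 measured members was 0.24. With scaling to the 75th percentile 9 lay above (25.7%, against 13.6% of all genes) and 3 below (8.57%, against 24.1%). With scaling to the median of probes above background 9 lay above (25.7%, against 10.7%) and 7 below (20%, against 25.9%). There the list's median was 0.02. On the reported scaling the median was 0.07 without C5F and 0.37 without C6. Rock2, a kinase downstream of RhoA that drives contraction, read 4.99 in N1 and 5.19 in L2, against 3.98 in C5F and 4.20 in C6. Vasp, which promotes filament elongation, read 7.81 in N1 and 7.68 in L2, against 7.08 in C5F and 6.97 in C6. Capg, which caps filament ends, read 9.07 in N1 and 8.65 in L2, against 7.78 in C5F and 8.01 in C6. Gsn, gelsolin, which cuts filaments, read 8.55 in N1 and 8.55 in L2, against 7.27 in C5F and 7.96 in C6. Pdlim4, a scaffold of stress fibres, read 4.81 in N1 and 6.17 in L2, against 3.22 in C5F and 4.13 in C6. The classes were apart for all 5 genes, by gaps of 1.51-fold (Gsn) to 1.73-fold (Rock2). The 3 members set apart below had class differences of −0.18 to −0.75.

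C5F set the size of several of the largest differences. Tmsb4x, thymosin beta 4, which binds actin monomers, read 11.62 in N1 and 8.12 in L2, against 2.38 in C5F (near background) and 7.67 in C6. The difference of 4.85 became 2.21 without C5F. Cavin3, a coat protein of caveolae, read 8.74 in N1 and 9.0 in L2, against 4.91 in C5F and 8.46 in C6, a difference of 2.18 that became 0.41 without C5F. Vim, the intermediate filament protein vimentin of mesenchymal cells, read 10.13 in N1 and 9.11 in L2, against 6.24 in C5F and 9.01 in C6, a difference of 2.0 that became 0.61 without C5F. Anxa1, an annexin that binds membrane phospholipids, read 11.04 in N1 and 10.88 in L2, against 6.98 in C5F and 10.15 in C6, and its 2.39 became 0.80. In all 4 genes C5F was the dimmest line, and C6 was 0.10 to 0.72 below the lower of the high-metastatic lines. For Tmsb4x, N1 was also far above the other lines.

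Genes of amino acid metabolism leaned the other way. Of 29 members with 4 usable spots, 8 were set apart below (27.6%, against 19.0% of all genes) and 3 above (10.3%), and the median over 41 measured members was −0.25. The lean depended on the scaling. With scaling to the median of probes above background 7 lay below (24.1%, against 25.9% of all genes), with the 75th percentile 10 (34.5%, against 24.1%) and on the authors' normalized intensity 8 (27.6%, against 12.9%). The median was −0.10 without C5F, −0.09 without L2 and −0.41 without C6. Besides Bcat1 and Asl, Psat1, an aminotransferase of serine synthesis, read 7.77 in N1 and 6.87 in L2, against 9.15 in C5F and 8.47 in C6, and its second probe differed by −0.98. Shmt2, the mitochondrial enzyme that takes one-carbon units from serine, read 8.42 in N1 and 7.37 in L2, against 8.93 in C5F and 8.56 in C6. Slc38a1, a glutamine transporter, read 5.01 in N1 and 1.34 in L2 (near background), against 5.56 in C5F and 5.52 in C6, so that the gap was 1.43-fold while L2 was at background. The difference of −2.36 for Slc38a1 became −0.53 without L2. Hgd, an enzyme of tyrosine breakdown, read 4.67 in N1 and 4.03 in L2, against 7.09 in C5F and 5.30 in C6. Gpt2, the mitochondrial alanine aminotransferase, was set apart in the opposite direction, with 4.19 in N1 and 4.20 in L2, against 3.67 in C5F and 2.55 in C6 (near background).

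Lysosome, endocytosis and autophagy genes gave the largest share of lower members of the function lists with at least 8 members. Of 35 members with 4 usable spots, 13 were set apart below (37.1%, against 19.0%) and 4 above (11.4%), with a median of −0.15 over 54 measured members. The count below ranged from 8 (22.9%, against 12.9% of all genes) on the authors' normalized intensity, where 0 lay above, to 16 (45.7%, against 25.9%) with scaling to the median of probes above background, where 1 lay above. The median was −0.23 without N1 and −0.08 without L2. The differences of the 54 ranged from −1.85 to 3.24. Atp6v1b2, a subunit of the vacuolar proton pump, read 8.08 in N1 and 8.04 in L2, against 8.55 in C5F and 8.53 in C6, and Clta, a clathrin light chain, read 5.03 in N1 and 5.0 in L2, against 5.46 in C5F and 5.58 in C6. Cltc and Ap2b1, the clathrin heavy chain and a subunit of its AP-2 adaptor, differed by −0.67 ± 0.32 and −0.58 ± 0.29 (SE). The second Cltc probe gave −0.73. Ehd1, which recycles endosomes, read 7.96 in N1 and 7.77 in L2, against 8.31 in C5F and 9.43 in C6, while its relative Ehd4 was set apart the other way, with 7.16 in N1 and 8.90 in L2, against 6.68 in C5F and 7.02 in C6.

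**Figure D3:**
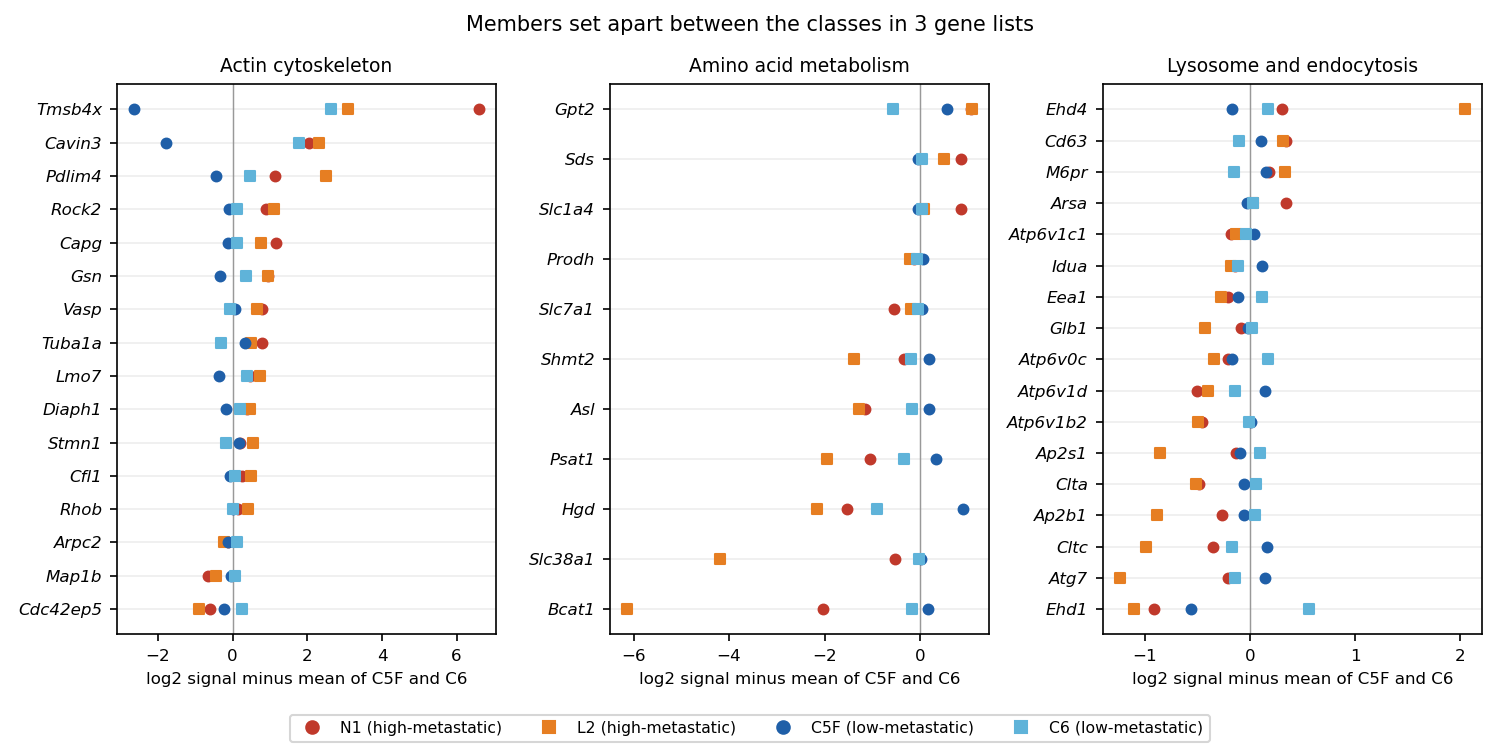
Log2 signal of each line minus the mean of C5F and C6 (x axis) for the members set apart in the lists of the actin cytoskeleton, amino acid metabolism, and lysosome and endocytosis, ordered by class difference, with N1 and L2 in red and orange and C5F and C6 in blue. C5F stands alone at the left for Tmsb4x and Cavin3, and L2 stands alone for Bcat1 and Slc38a1.

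Ribosomal and translation genes were also set apart more often below than above. Of 51 members, 14 lay below (27.5%, against 19.0% of all genes) and 4 above (7.84%, against 19.2%). The median over 60 measured members was −0.02. On the other scalings 14 to 19 lay below (27.5% to 37.3%, against 12.9% to 25.9% of all genes), and the median was −0.16 to −0.35. Leaving out 1 line moved it between −0.16 without N1 and 0.06 without C5F. Eif3b, a translation initiation factor, read 9.21 in N1 and 9.49 in L2, against 9.97 in C5F and 10.22 in C6. Dkc1, the pseudouridine synthase of nucleolar RNA, read 4.59 in N1 and 4.25 in L2, against 5.40 in C5F and 5.04 in C6, and Ncl, nucleolin, read 10.40 in N1 and 10.89 in L2, against 11.23 in C5F and 11.45 in C6, with a second probe at −0.74. Rpsa, a protein of the small ribosomal subunit, was set apart above, with 10.61 in N1 and 10.37 in L2, against 10.19 in C5F and 9.32 in C6. Cell cycle and DNA replication genes numbered 13 of 48 (27.1%, against 19.0% of all genes) below and 7 (14.6%, against 19.2%) above. Their median over 67 measured members was −0.002. On the authors' normalized intensity the counts turned to 4 below (8.33%, against 12.9% of all genes) and 8 above (16.7%, against 18.6%). Ccna2, the S-phase cyclin A2, read 7.83 in N1 and 6.99 in L2, against 8.28 in C5F and 8.55 in C6, and Cdk1, the kinase of mitotic entry, was set apart the other way with 9.82 in N1 and 10.13 in L2, against 9.23 in C5F and 9.35 in C6. Rpa1, a subunit of the single-strand DNA binding protein, read 7.80 in N1 and 7.77 in L2, against 8.42 in C5F and 8.36 in C6. Psmb4, a proteasome subunit, read 4.11 in N1 and 4.0 in L2, against 4.86 in C5F and 5.21 in C6, whereas Psme1, of the proteasome activator, read 9.56 in N1 and 9.86 in L2, against 8.79 in C5F and 8.97 in C6.

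Of 14 genes of epithelial junctions with 4 usable spots, 3 were set apart below (21.4%, against 19.0% of all genes) and 1 above (7.14%, against 19.2%). The median over 22 members was −0.08, and it was −0.35 without N1, −0.15 without C6 and turned to 0.36 without L2. Cdh1, E-cadherin, read 6.72 in N1 and 2.03 in L2 (near background), against 6.89 in C5F and 8.17 in C6. N1 was close to C5F for Cdh1 and L2 alone was near background, so the difference of −3.15 became −0.81 without L2. Cldn3, a claudin of tight junctions, read 2.92 in N1 (near background) and 3.82 in L2, against 5.23 in C5F and 4.57 in C6, and Cdh17, a cadherin of liver and intestine, read 9.77 in N1 and 8.76 in L2, against 10.07 in C5F and 10.90 in C6. Of the mesenchymal list, 3 of 10 were set apart above (30%, against 19.2% of all genes) and 1 below (10%, against 19.0%). On the authors' normalized intensity 1 lay above (10%, against 18.6% of all genes) and 1 below (10%, against 12.9%). The median over 12 members was 0.56, and it was 0.15 without C5F and 1.09 without C6. Thy1, a surface protein of fibroblasts and stellate cells, was the one below, with 3.66 in N1 (near background) and 3.85 in L2, against 4.44 in C5F and 4.37 in C6. Of the matrix list 3 of 9 lay above (33.3%, against 19.2% of all genes) and 1 below (11.1%, against 19.0%). With scaling to the median of probes above background 1 lay above (11.1%, against 10.7% of all genes) and 2 below (22.2%, against 25.9%). Lama5, a laminin chain of basement membranes, read 8.96 in N1 and 9.59 in L2, against 7.65 in C5F and 8.34 in C6.

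Among matrix proteases and their inhibitors 6 of 17 members were set apart above (35.3%, against 19.2% of all genes) and 1 below (5.88%, against 19.0%), with a median of 0.16 over 28 members. The other scalings gave 3 or 4 above (17.6% to 23.5%, against 10.7% to 18.6% of all genes). Under each of them 2 lay below (11.8%, against 12.9% to 25.9%). The median was 0.41 without L2 and 0.31 without C6. Cst3, the secreted cysteine protease inhibitor cystatin C, read 4.82 in N1 and 5.95 in L2, against 2.18 in C5F (near background) and 3.87 in C6. Mmp11, a matrix metalloproteinase of stromal remodelling, read 6.36 in N1 and 5.14 in L2, against 4.57 in C5F and 3.63 in C6 (near background), and a second probe differed by 1.99. Serpinb6a, an intracellular serpin, read 11.0 in N1 and 10.98 in L2, against 9.23 in C5F and 10.57 in C6. Integrins and adhesion molecules gave 4 of 20 above (20%, against 19.2%) and 0 below (against 19.0%). Scaling to the median of probes above background gave 2 above (10%, against 10.7% of all genes). The 75th percentile gave 1 above (5%, against 13.6%). The 4 included the tetraspanin Cd81, with 11.07 in N1 and 10.04 in L2, against 9.59 in C5F and 9.82 in C6, and Cd24, a surface glycoprotein, with 6.96 in N1 and 7.75 in L2, against 6.66 in C5F and 6.32 in C6.

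Signalling genes were measured in small numbers, and over all genes 19.2% were set apart above and 19.0% below. Of 14 growth factors and secreted ligands 4 were set apart above (28.6%) and 2 below (14.3%). Stc1, the secreted glycoprotein stanniocalcin, read 4.60 in N1 and 6.52 in L2, against 3.79 in C5F and 4.24 in C6, and Tgfb3, a ligand of the TGF-beta family, read 5.02 in N1 and 4.74 in L2, against 3.71 in C5F and 4.41 in C6. Of 15 receptors and adaptors 3 lay above and 1 below, and Tyro3, a receptor tyrosine kinase, read 6.02 in N1 and 6.29 in L2, against 5.17 in C5F and 5.40 in C6, with a second probe at 0.59. Of 8 WNT, NOTCH and Hedgehog genes 4 lay above (50.0%) and 1 below (12.5%). With either of the scalings to a fixed quantile 2 lay above (25.0%, against 10.7% and 13.6% of all genes) and 1 below. Tcf7, a transcription factor of the WNT pathway, read 4.65 in N1 and 6.09 in L2, against 4.01 in C5F and 3.56 in C6 (near background). Klf5, an epithelial zinc finger factor, read 5.61 in N1 and 4.15 in L2, against 3.77 in C5F and 1.34 in C6 (near background), with the lines of each class far apart. Id1, an inhibitor of DNA binding, read 9.19 in N1 and 8.81 in L2, against 8.26 in C5F and 8.11 in C6, and Etv5, an ETS factor, read 4.47 in N1 and 4.59 in L2, against 4.0 in C5F and 4.03 in C6.

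Of 24 genes of fatty acid and sterol synthesis 5 were set apart above (20.8%, against 19.2% of all genes) and 3 below (12.5%, against 19.0%). Msmo1, a methyl oxidase of cholesterol synthesis, was the widest, with 9.15 in N1 and 9.33 in L2, against 7.91 in C5F and 8.12 in C6, and Srebf2, the transcription factor of that pathway, read 8.60 in N1 and 8.99 in L2, against 7.92 in C5F and 8.19 in C6. Fatty acid oxidation gave 4 of 13 above (30.8%) and 0 below. With either scaling to a fixed quantile 1 lay above (7.69%, against 10.7% and 13.6% of all genes). The median of the list over 20 members was 0.43, and it was 0.07 without N1, 0.71 without L2 and 0.28 without C6. Acadl, the long-chain acyl-CoA dehydrogenase, read 8.35 in N1 and 8.41 in L2, against 8.03 in C5F and 7.69 in C6. Respiratory chain and citric acid cycle genes gave 8 of 44 above (18.2%) and 7 below (15.9%). With scaling to the median of probes above background 2 lay above (4.55%, against 10.7% of all genes) and 9 below (20.5%, against 25.9%). With the 75th percentile 3 lay above (6.82%, against 13.6%) and 7 below (15.9%, against 24.1%). The authors' normalized intensity gave 4 above (9.09%, against 18.6%) and 2 below (4.55%, against 12.9%). Atp5mc3, a subunit of ATP synthase, read 11.13 in N1 and 11.21 in L2, against 10.44 in C5F and 10.52 in C6. Glycolysis and hypoxia genes gave 3 of 24 above (12.5%) and 1 below (4.17%). Pfkfb2, an enzyme that sets fructose 2,6-bisphosphate, read 4.52 in N1 and 4.36 in L2, against 3.45 in C5F and 3.45 in C6 (near background). Slc16a3, the lactate exporter, read 8.47 in N1 and 3.83 in L2, against 9.54 in C5F and 9.13 in C6, and its difference of −3.19 became −0.87 without L2.

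A further set of genes lacked a usable spot on 1 line and rests on 3 arrays. Car9, the hypoxia-induced carbonic anhydrase of the cell surface, read 9.44 in N1, against 5.28 in C5F and 5.58 in C6. Ltbp3, which tethers latent TGF-beta to the matrix, read 7.51 in N1 and 7.69 in L2, against 4.09 in C5F, and Gstt3, a glutathione transferase, read 8.89 in N1 and 9.38 in L2, against 5.11 in C6. Spry4, an inhibitor of receptor tyrosine kinase signalling, read 7.79 in L2, against 4.67 in C5F and 4.69 in C6, and Il24, a cytokine of the interleukin-10 family, read 7.01 in L2, against 3.84 in C5F and 4.37 in C6. In the other direction Trip6, a LIM protein of focal adhesions, read 4.45 in L2, against 8.08 in C5F and 8.08 in C6, and Icam1, an intercellular adhesion molecule, read 4.58 in L2, against 7.53 in C5F and 7.65 in C6. Fbxo46, an F-box protein, Mgll, the monoglyceride lipase, and Cfap77, a ciliary protein, differed by −2.55, −2.0 and −2.12. For Spry4, Il24, Trip6, Icam1, Fbxo46 and Mgll the high-metastatic class was read on L2 alone, and for Car9 on N1 alone.

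The chromosomal order of the genes set apart was also read. After a gene set apart above, the next measured gene along the chromosome in the RefSeq order (assembly GRCr8) was set apart the same way in 20.9% of cases, against 19.3% over all neighbours, and after a gene set apart below in 21.8%, against 19.0%. The longest unbroken run held 8 genes, Spata24, Pfdn1, Ankhd1, Apbb3, Tmco6, Zmat2, Diaph1 and Hdac3, all higher in N1 and L2. Of the 10 measured genes from Spata24 to Hdac3, the other two, Ube2d2 and Ik, lacked 1 line and were also higher on every usable array. The median difference of the 10 was 0.82, with a range of 0.43 to 1.27, and it was 0.76 to 0.90 under the other scalings. There 9 or 10 of them did not overlap between the classes, against 10.7% to 18.6% of all genes set apart above. The run was chosen on these same arrays because its genes were set apart above. Its positive median and lack of overlap therefore follow from the choice. Of the genes with 4 usable spots among the 10 measured just before the run, 5 of 8 were set apart above, and among the 10 just after it 1 of 4, against 19.2% of all genes.

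The class differences along that stretch varied. They ranged from 0.43 to 1.27 over the 10 genes from Spata24 to Hdac3. Over the 10 genes before the run the range was −0.16 to 1.14, and over the 10 after it −0.45 to 3.10. Pfdn1, a subunit of the prefoldin chaperone, read 9.07 in N1 and 8.94 in L2, against 8.33 in C5F and 8.40 in C6. Zmat2, a spliceosome protein, read 8.30 in N1 and 8.79 in L2, against 7.57 in C5F and 7.42 in C6, and Hdac3, a histone deacetylase, read 7.61 in N1 and 8.34 in L2, against 7.37 in C5F and 7.19 in C6. Before the run, Ctnna1, alpha-catenin, which ties cadherins to actin, read 9.43 in N1 and 10.15 in L2, against 8.62 in C5F and 8.83 in C6, and Egr1, an immediate early transcription factor, read 6.41 in N1 and 7.51 in L2, against 6.0 in C5F and 5.68 in C6. After the run, Spry4 had the widest difference of the stretch, and Nr3c1, the glucocorticoid receptor, read 5.52 in N1, against 5.06 in C5F and 4.57 in C6. Etf1, a translation release factor that lies before the run, was not set apart, with 8.57 in N1 and 8.72 in L2, against 8.97 in C5F and 8.64 in C6. Over 3359 windows of 20 neighbouring genes with 4 usable spots, the median window held 4 genes set apart above and the fullest held 15, while for genes set apart below these numbers were 3 and 12. Only runs of at least 5 genes were listed, and the other 4 held 5 or 6 genes. They began at Cdkn2aipnl and at Pnp for genes higher in the high-metastatic lines, and at Tsr1 and Zfp830 for genes lower there.

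Other probes of a gene pointed the same way as the first in 124 of 161 probes (77.0%) for 145 genes set apart above and in 87 of 122 probes (71.3%) for 107 genes set apart below, against 458 of 715 probes (64.1%) for 661 genes in all. Among genes with a gap of at least 2-fold, 4 of 6 second probes pointed the same way.

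Of 52 markers of hepatocytes and other cell types on the array, 4 were above background on both N1 and L2 and 5 on both C5F and C6, while 31 were above background on no line and 34 were above it in liver. Of 9 hepatocyte markers 6 were above background on at least 1 line, but none on both lines of a class. Above background on both high-metastatic lines were 1 of 12 macrophage, 1 of 8 endothelial and 2 of 8 lymphocyte markers, and 0 of 10 markers of stellate cells and fibroblasts. On both low-metastatic lines 1 of 12 macrophage, 1 of 8 endothelial and 1 of 8 lymphocyte markers were above background. So were 1 of 10 stellate cell and fibroblast markers and 1 of 5 cholangiocyte and progenitor markers (0 on both high-metastatic lines). The part of these cell types in the results was not tested. Of the 5 arrays, the share of discovery probes above background was 32.7% in N1, 36.0% in L2, 39.2% in C5F, 34.3% in C6 and 30.6% in liver, so that the classes overlapped in this measure. Missing spots among the 10741 probes numbered 821 to 1163 per line.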

How the data were processed

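RNA of 4 carcinoma lines and 1 liver was read on 5 single-colour CodeLink arrays, 1 sample per array, with 35129 spots each. Scans were quantified by the authors in CodeLink Expression Analysis 4.1.0.29054, per the file headers. Each deposited array file lists the raw intensity and a quality call of every spot. The deposited series matrix holds the normalized intensity of the same files (largest difference 0). Any processing beyond this is not given in the sources used here.

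From the raw intensity, control spots were left out, and spots called neither above (G) nor near background (L) were set to missing. Signals of the 5 arrays were quantile normalised with limma 3.58.1 in R 4.3.3, given a floor of 2.53 (the median over spots called near background) and converted to log2. Tables were read with the R package data.table (version 1.17.8). One limma model with the groups high-metastatic, low-metastatic and liver was fitted to 16377 probes above background in liver or on at least 2 lines, of which 13741 could be tested (prior degrees of freedom 1.43), two-sided, with Benjamini-Hochberg adjustment at 0.05. Tests measure the spread between lines, and the number of arrays limits their precision.

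Gaps were counted over probes above background on at least 3 lines with a usable spot on all 4. The probe with the highest mean over the 4 lines stood for a gene, after probes with 4 usable spots. Symbols of the platform annotation were updated through Entrez numbers (16836 of 16865 matched in RefSeq, assembly GRCr8). The rule named the 20 genes with the widest gap in each direction, up to 3 per function list, and 5 in each direction with 1 missing spot. Tmsb4x, Gsn, Vasp, Cavin3, Vim, Slc38a1, Hgd, Shmt2, Gpt2, Mmp11, Serpinb6a, Ehd4, Cltc, Ap2b1, Ncl, Rpsa and the neighbouring genes were named after their values were seen. The members and lists were chosen with earlier results of these data known. The fit was tested on simulated data. Alternatives were other scalings, an offset of 50, irregular spots kept, other filters on dim probes, other moderation and leaving out each line.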

Additional observations from a re-analysis of the deposited data

How the results depend on the processing

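No paired analysis was possible because no replicate number links a line of one class to a line of the other. No probe passed the adjusted p of 0.05 in any of the 15 alternatives (lowest adjusted p 0.228 on the authors' normalized intensity to 0.893 without C5F). Of the 124 genes named, all but Etf1 kept the sign of their class difference under every alternative that gave them a value. Etf1 ranged from −0.32 without C6 to 0.0056 without C5F. Most of these genes were named because their classes did not overlap. For such a gene, leaving out a line or adding an offset cannot reverse the sign, so the agreement there was fixed by the choice. Counts of probes set apart moved by over 1.5 times in the following cases, whose cause was not tested unless it is the changed number of probes or lines. Above as reported were 1293 probes, against 775 with scaling to the median of probes above background and 1995 with irregular spots kept, which adds probes. Below as reported were 1258, against 797 on the authors' normalized intensity and 2233 with irregular spots kept. Gaps of at least 2-fold above numbered 50 as reported, 12 with an offset of 50, 78 with irregular spots kept, 26 above background on all 4 lines and 107 on at least 2 lines. Gaps of at least 2-fold below numbered 18 as reported, 4 with the offset, 9 above background on all 4 lines and 77 on at least 2. Gaps of at least 4-fold above numbered 9 as reported, 3 with the offset, 17 with irregular spots, 4 on all 4 lines and 29 on at least 2. Gaps of at least 4-fold below numbered 2 as reported, 5 and 4 with scaling to the median and to the 75th percentile, 1 on the authors' normalized intensity, 0 with the offset, 4 with irregular spots, 1 on all 4 lines and 18 on at least 2. Leaving out 1 line makes separation easier by construction and gave 2434 to 3151 probes above, 2198 to 3305 below, 163 to 310 at 2-fold above, 92 to 321 at 2-fold below, 39 to 98 at 4-fold above and 15 to 82 at 4-fold below. Of 288 list medians under alternatives that keep all lines, 239 moved by less than the spread between lines of a class, as did 98 of 144 with a line left out.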

Other observations

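Smaller lists gave single genes of interest. Of 14 interferon and antigen presentation genes 4 were set apart with N1 and L2 above (28.6%, against 19.2% of all genes) and 0 below (against 19.0%). Their median was 0.02 over 18 members. Ifi27, an interferon-induced mitochondrial protein, read 9.38 in N1 and 9.48 in L2, against 8.54 in C5F and 8.05 in C6. Of 17 G1 cyclins, cell cycle inhibitors and p53 targets 3 lay above (17.6%, against 19.2% of all genes) and 0 below (against 19.0%). With scaling to the median of probes above background 2 lay above (11.8%, against 10.7% of all genes) and 4 below (23.5%, against 25.9%). With the 75th percentile 1 lay above (5.88%, against 13.6%) and 2 below (11.8%, against 24.1%). Phlda3, a p53 target that restrains AKT, read 8.46 in N1 and 7.88 in L2, against 5.53 in C5F and 7.36 in C6. Of 11 S100 proteins, annexins and galectins 2 lay above and 2 below (18.2% each, against 19.2% and 19.0% of all genes). Anxa2, of those below, read 4.46 in N1 and 4.23 in L2, against 4.82 in C5F and 5.29 in C6. Of 22 ion channels and solute carriers 5 lay above (22.7%, against 19.2% of all genes) and 4 below (18.2%, against 19.0%). Abcc2, a canalicular exporter of conjugates, read 3.62 in N1, near background, and 3.92 in L2, against 4.58 in C5F and 4.45 in C6.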
